A study of Homo sapiens with 28 samples.

Results

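The enzymes that write and remove methyl groups on cytosine were followed through human pluripotent cell lines. The 8 genes are the methyltransferases DNMT1, DNMT3A and DNMT3B, the cofactor DNMT3L, the DNMT1 partner UHRF1, and the dioxygenases TET1, TET2 and TET3. They were taken as the transcript clusters and probesets annotated to these symbols alone on Affymetrix Human Exon 1.0 ST arrays. Each symbol had 1 of the 22011 clusters, and together they had 203 of the 287329 probesets (DNMT1 50, DNMT3A 35, DNMT3B 32, DNMT3L 16, UHRF1 18, TET1 29, TET2 14 and TET3 9). A transcript cluster sums up a gene, and a probeset is a small group of probes that usually reads a single exon or part of one. All 8 clusters had a mean level above the 25th percentile of all clusters. Of the probesets, all of DNMT1, UHRF1, TET1 and TET3 passed the same cut at exon level, as did 33 of DNMT3A, 31 of DNMT3B, 13 of DNMT3L and 6 of TET2.

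Embryonal carcinoma (EC) lines come from germ cell tumours and embryonic stem (ES) lines from early embryos. The 14 arrays fall into 3 kinds of culture. EC lines on feeders were NTERA2, 2102Ep and 833KE (n = 3), which the labels place on feeder layers of mouse embryo fibroblasts treated with mitomycin C, in a serum-replacement medium (knock-out DMEM) with FGF. EC lines on plastic were NCCIT, 2102Ep, 833KE, TERA1 and NTERA2 (n = 5), grown without feeders in DMEM with fetal calf serum. ES lines were H14, Shef5, Shef6, Shef3, H9 and Shef7 (n = 6), grown on the same feeders and in the same medium as the first group. All cells had been sorted for the surface antigen SSEA3. Each array is a different line or growth condition, so SDs and the p-values against ES measure the spread between lines and not between repeat cultures. For EC lines on feeders against the same lines on plastic, the line is in the model. Those p-values measure how much the within-line differences vary. A comparison of EC lines on plastic with ES lines changes cell type and growth condition together.

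Several facts of the whole series bear on the results. Pairs of arrays correlated across clusters with r between 0.93 and 0.98. The median level of 8 pluripotency genes was 9.71 to 10.63 in EC lines on feeders, 10.19 to 11.09 in EC lines on plastic and 10.00 to 10.78 in ES lines, and single genes of the list were as low as 4.22 in an EC line on plastic and 3.41 in an ES line. NANOG, SOX2 and POU5F1 were read from probesets: the brightest NANOG probeset read 11.23 to 12.43 in EC lines on feeders, 11.58 to 12.85 in EC lines on plastic and 9.41 to 11.57 in ES lines, and the brightest SOX2 probeset 10.48 to 11.30, 11.27 to 11.94 and 11.18 to 11.89 in the same groups. The brightest POU5F1 probeset was less bright, with 9.04 to 10.11 in EC lines on feeders, 8.04 to 9.28 in EC lines on plastic and 7.25 to 9.18 in ES lines. The median log2 level of 10 fibroblast genes was 5.05 to 5.25 in EC lines on feeders, 4.81 to 5.01 in EC lines on plastic and 5.04 to 5.73 in ES lines, and 1 of them (COL1A1) fell in EC lines on plastic against ES. Of the endoderm markers 2 of 7 (SOX17 and GATA6) and of the mesoderm markers 2 of 5 (MIXL1 and EOMES) also fell in EC lines on plastic against ES, with list medians of -0.76 and -0.90. In this comparison 3.26% of all clusters were called higher and 1.34% lower. On feeders no marker of these 3 lists was called against ES, and the endoderm and mesoderm medians were both -0.53. Of 4 seminoma markers, a list that also holds SOX17, 1 was called higher and 1 lower on plastic against ES. On feeders 2 of the 4 were called lower against ES, where 0.731% of all clusters were lower. The 3 neural and 4 trophoblast markers measured gave 0 calls in both comparisons. Summed endoderm levels were 39.25 to 39.74 in EC lines on feeders, 37.28 to 39.01 in EC lines on plastic and 40.09 to 49.07 in ES lines, and summed mesoderm levels 31.85 to 39.46, 29.50 to 31.68 and 33.25 to 40.00 in the same groups. The part of such cells in the differences from ES below was not tested. The labels carry array codes, and 4 arrays have codes up to 13 (H14, Shef5, and NTERA2 and 2102Ep on feeders) while 10 have codes from 17. The labels do not say what the code stands for, and the split is used below only as a technical one. If probesets are numbered along the genome within genes as they are between genes, the 3′ end minus the 5′ end of a gene, relative to the mean of all arrays, had a median over 6911 genes of 0.10 to 0.26 on arrays with codes up to 13 and of -0.23 to 0.11 on the others. The part of this balance in any result below was not tested.

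As background, DNMT1 copies methylation onto the new strand after replication, and UHRF1 brings it there by binding half-methylated DNA. DNMT3A and DNMT3B methylate unmodified DNA, and DNMT3L, which has no catalytic activity of its own, stimulates both; in mice it is needed in germ cells. TET1, TET2 and TET3 oxidise 5-methylcytosine, a first step of its removal. DNMT3B and TET1 are well known as abundant transcripts of human ES cells.

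The substrate of these enzymes is the CpG dinucleotide, and the start regions of the genes themselves differ in it. Human RefSeq sequence (GRCh38.p14, a window of 300 bases across each transcript start) was matched for 7 of the 8 genes by symbol, at 18 starts. Across all 35116 such windows the median count was 14 CpG, and 96% held at least 1. TET1 had 6 to 11 CpG at its 3 starts. The only DNMT3B window matched held 3, but it lies inside the annotated gene and not at its 5′ end, so the main start of DNMT3B is not described here. UHRF1 had 36 to 46 at 3 starts, TET3 33 to 45 at 2, DNMT1 30 at 1, TET2 13 to 35 at 2 and DNMT3A 18 to 46 at 6. A pair of windows is shown for DNMT3A, whose starts fall into an upstream group of 3 and an internal group of 3, because its probesets below do not all move alike. The 2 DNMT3A windows shown lie 90168 bases apart. UHRF1 and TET1 are shown because their differences between feeders and plastic had opposite signs. CpG are in capitals. The upstream DNMT3A window is chr2:25342434-25342733 and the internal one chr2:25252266-25252565, both on the minus strand. The UHRF1 window is chr19:4909251-4909550 and the TET1 window chr10:68560087-68560386, both on the plus strand.
DNMT3A upstream start: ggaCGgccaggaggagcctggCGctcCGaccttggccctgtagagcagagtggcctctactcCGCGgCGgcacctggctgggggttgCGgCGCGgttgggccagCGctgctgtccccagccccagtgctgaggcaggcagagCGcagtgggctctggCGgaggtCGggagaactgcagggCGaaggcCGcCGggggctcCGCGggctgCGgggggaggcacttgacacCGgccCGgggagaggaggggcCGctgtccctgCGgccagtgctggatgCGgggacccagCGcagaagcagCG
DNMT3A internal start: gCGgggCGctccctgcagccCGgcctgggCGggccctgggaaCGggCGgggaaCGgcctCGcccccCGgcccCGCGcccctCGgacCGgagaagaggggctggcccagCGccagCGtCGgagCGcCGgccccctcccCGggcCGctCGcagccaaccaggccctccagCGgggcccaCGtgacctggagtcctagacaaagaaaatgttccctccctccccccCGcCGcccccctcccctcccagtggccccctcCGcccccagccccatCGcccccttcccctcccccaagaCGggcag
UHRF1 start: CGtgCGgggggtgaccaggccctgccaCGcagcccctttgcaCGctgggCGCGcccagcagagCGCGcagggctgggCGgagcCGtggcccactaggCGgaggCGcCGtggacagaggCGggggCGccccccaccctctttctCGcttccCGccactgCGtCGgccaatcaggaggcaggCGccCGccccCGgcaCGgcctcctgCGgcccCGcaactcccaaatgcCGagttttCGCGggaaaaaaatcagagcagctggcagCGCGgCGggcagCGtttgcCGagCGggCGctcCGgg
TET1 start: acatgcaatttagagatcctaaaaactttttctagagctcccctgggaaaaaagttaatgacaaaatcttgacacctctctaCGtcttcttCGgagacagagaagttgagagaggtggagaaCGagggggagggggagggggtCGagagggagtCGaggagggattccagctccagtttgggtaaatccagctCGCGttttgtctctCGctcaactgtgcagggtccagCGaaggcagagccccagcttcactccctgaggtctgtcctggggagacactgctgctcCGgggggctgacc
These windows hold 26, 28, 36 and 10 CpG in the order shown, and they describe the reference genome, not the methylation of these cells, which was not measured.

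No member passed the test at gene level in any of the 3 comparisons, and only TET1 had groups that did not overlap, in 1 of them. With limma and Benjamini-Hochberg adjustment over all clusters (adjusted p below 0.05), 0 of 8 were called in EC lines on plastic against ES lines, where 4.6% of all clusters were called (3.26% higher and 1.34% lower). The same count was 0 of 8 in EC lines on feeders against ES lines, with 2.29% of all clusters called (1.56% higher and 0.731% lower), and 0 of 8 in EC lines on feeders against the same lines on plastic, where 0% of all clusters were called. At an unadjusted p below 0.05 the members numbered 1, 1 and 2 in these comparisons, against 19.2%, 17.6% and 14.9% of all clusters. Groups did not overlap for 0, 0 and 1 members, against 4.37%, 8.87% and 14.2% of all clusters. The median difference of the 8 genes was -0.041, 0.21 and -0.15 on the log2 scale, against 0.0046, 0.042 and 0.022 for all clusters. The first 2 comparisons share the ES arrays. In bulk RNA, fewer expressing cells and less RNA per cell cannot be told apart.

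**Figure D1:**
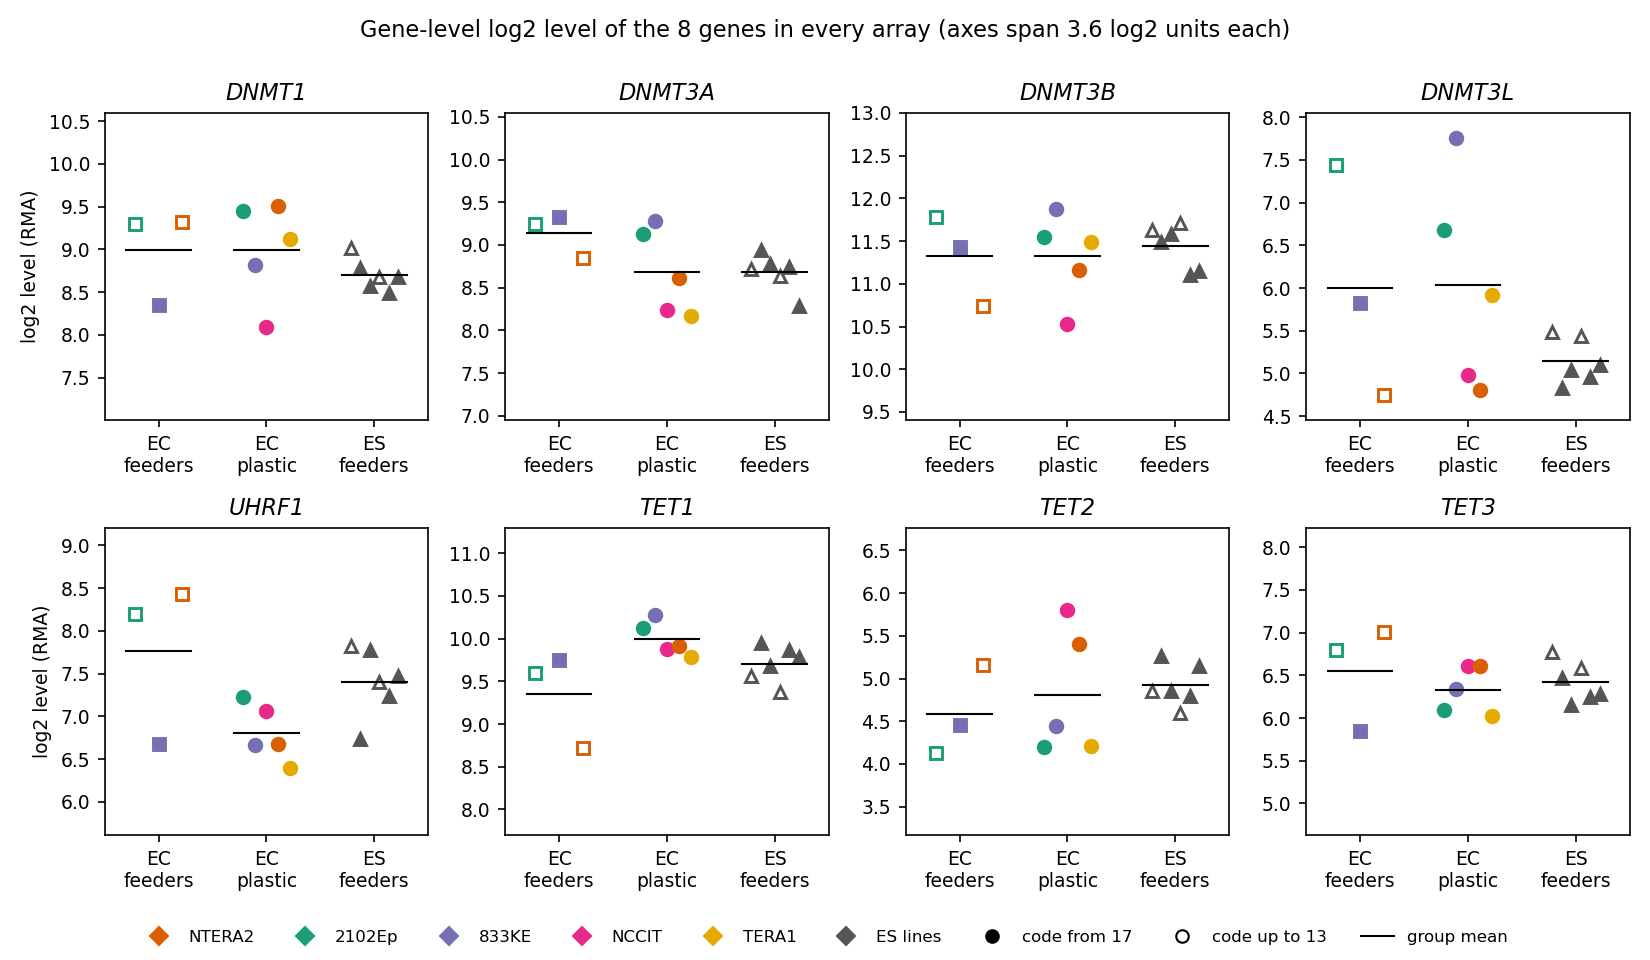
Gene-level log2 level (vertical axis, RMA) of each gene in the 3 EC arrays on feeders, the 5 EC arrays on plastic and the 6 ES arrays; points are arrays, black bars are group means, colours mark EC lines and open points mark array codes up to 13. DNMT3L spans 2.70 log2 units among EC lines on feeders and 2.95 among EC lines on plastic, against 0.66 among ES lines, and the 4 open points are the lowest of all for TET1.

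The maintenance enzyme DNMT1 (cluster 3850069) read 9.32 in NTERA2, 9.30 in 2102Ep and 8.34 in 833KE on feeders. The arrays on plastic read 8.10 in NCCIT, 9.45 in 2102Ep, 8.81 in 833KE, 9.12 in TERA1 and 9.50 in NTERA2, and in ES lines 8.48 at the lowest, 8.68 at the median and 9.01 at the highest. EC lines lay on both sides of the ES range: 2102Ep and NTERA2 in both conditions and TERA1 on plastic were above all ES lines, and NCCIT on plastic and 833KE on feeders were below. The difference from ES was 0.29 (SE 0.23, limma adjusted p = 0.577) for EC lines on feeders and 0.30 (SE 0.23, limma adjusted p = 0.547) for EC lines on plastic. Single lines decide its size: on feeders it was 0.12 without NTERA2, 0.13 without 2102Ep and 0.61 without 833KE, and on plastic 0.52 without NCCIT, 0.18 without 2102Ep and 0.17 without NTERA2. Within lines it was lower on feeders in all 3, by -0.19 in NTERA2, -0.15 in 2102Ep and -0.47 in 833KE, and 38.7% of all clusters had 1 sign in all 3 lines.

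DNMT1 probesets did not move as 1 block. The 12 lowest-numbered probesets stood closer to the 38 others in all 3 EC arrays on feeders (mean difference -0.70 in NTERA2, -0.97 in 2102Ep and -0.81 in 833KE) than in any EC array on plastic (-2.09 to -1.32). Among ES lines the same difference was -0.86 in H14 and -0.77 in Shef5, which have codes up to 13, and -1.95 to -1.55 in the 4 other lines. The blocks were chosen after the values were seen, so no test is given. The single DNMT1 probeset with the largest difference from the gene's others was 3850129 in EC lines on feeders against ES (-1.33, diffSplice adjusted p = 0.172) and 3850073 in EC lines on plastic against ES (0.88, diffSplice adjusted p = 0.428).

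UHRF1 (cluster 3817698), which recruits DNMT1, had the smallest p of the 8 in EC lines on plastic against ES lines. It read 8.43 in NTERA2, 8.20 in 2102Ep and 6.68 in 833KE on feeders. On plastic it read 7.06 in NCCIT, 7.22 in 2102Ep, 6.66 in 833KE, 6.39 in TERA1 and 6.68 in NTERA2, and in ES lines 6.73, 7.44 and 7.82 at the lowest, the median and the highest. NTERA2 and 2102Ep on feeders were above every ES line, while 833KE on feeders and 3 of 5 EC lines on plastic were below every ES line. EC lines on plastic averaged 6.80 ± 0.34 (SD, n = 5) and ES lines 7.41 ± 0.40 (SD, n = 6), a difference of -0.60 (SE 0.21, limma unadjusted p = 0.0159, adjusted p = 0.142), or 1.52-fold lower without passing the test. All 18 of its probesets were lower in EC lines on plastic, with differences between -0.91 and -0.35. Without the ES line H9 the difference was -0.74 and passed the test (limma adjusted p = 0.0478), and among arrays with codes from 17 it was -0.50 (limma adjusted p = 0.344).

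On feeders UHRF1 was higher than on plastic by 1.75 in NTERA2 and 0.98 in 2102Ep, and by 0.015 in 833KE. Of all clusters 38.7% had 1 sign in all 3 lines. The mean difference of UHRF1 was 0.91 (SE 0.35, limma unadjusted p = 0.0433, adjusted p = 0.323). Only in 833KE do both arrays have codes from 17. UHRF1 read 7.40 to 8.43 on the 4 arrays with codes up to 13 and 6.39 to 7.78 on the 10 others, ES lines included, so growth on feeders and the array code cannot be told apart in NTERA2 and 2102Ep. Against ES lines, EC lines on feeders differed by 0.36 (SE 0.37, limma adjusted p = 0.688). This was 0.034 without NTERA2, 0.15 without 2102Ep and 0.91 without 833KE. The single EC array on feeders with a code from 17 differed from the 4 such ES arrays by -0.63, and no test is given for 1 array. The 14 measured S phase and proliferation genes, among them subunits of the replicative helicase, gave 0 calls in all 3 comparisons. Their medians were 0.0096 in EC lines on plastic against ES, 0.052 in EC lines on feeders against ES and -0.042 in EC lines on feeders against plastic. In the same order 4.6%, 2.29% and 0% of all clusters were called, so counts of 0 are near these shares and are not read further. The S phase genes with the smallest p in EC lines on plastic against ES were MCM5 (-0.41, limma adjusted p = 0.227) and the proliferation marker MKI67 (0.76, limma adjusted p = 0.241).

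Of the new-methylation enzymes, DNMT3A (cluster 2544662) read 8.85 in NTERA2, 9.24 in 2102Ep and 9.32 in 833KE on feeders. EC lines on plastic read 8.24 in NCCIT, 9.13 in 2102Ep, 9.28 in 833KE, 8.17 in TERA1 and 8.61 in NTERA2, and ES lines had 8.28, 8.73 and 8.94 at the lowest, the median and the highest. The lines 2102Ep and 833KE were above every ES line in both conditions, and NCCIT and TERA1 were below every ES line. EC lines on feeders averaged 9.14 ± 0.26 (SD, n = 3) and ES lines 8.68 ± 0.22 (SD, n = 6), a difference of 0.46 (SE 0.18, limma unadjusted p = 0.028, adjusted p = 0.221). Of the 35 probesets, 32 were higher in EC lines on feeders. For EC lines on plastic, whose 5 lines fall on both sides, the difference was 0.0029 (SE 0.22, limma adjusted p = 0.997). The sign of this value turned with quantile normalisation (-0.19). NCCIT and TERA1 are in the plastic group only, and the 3 other lines averaged 9.01 on plastic. Within lines DNMT3A was higher on feeders by 0.24 in NTERA2, 0.12 in 2102Ep and 0.045 in 833KE. The mean of these was 0.13 (SE 0.16, limma adjusted p = 0.735), and 38.7% of all clusters had 1 sign in all 3 lines.

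**Figure D2:**
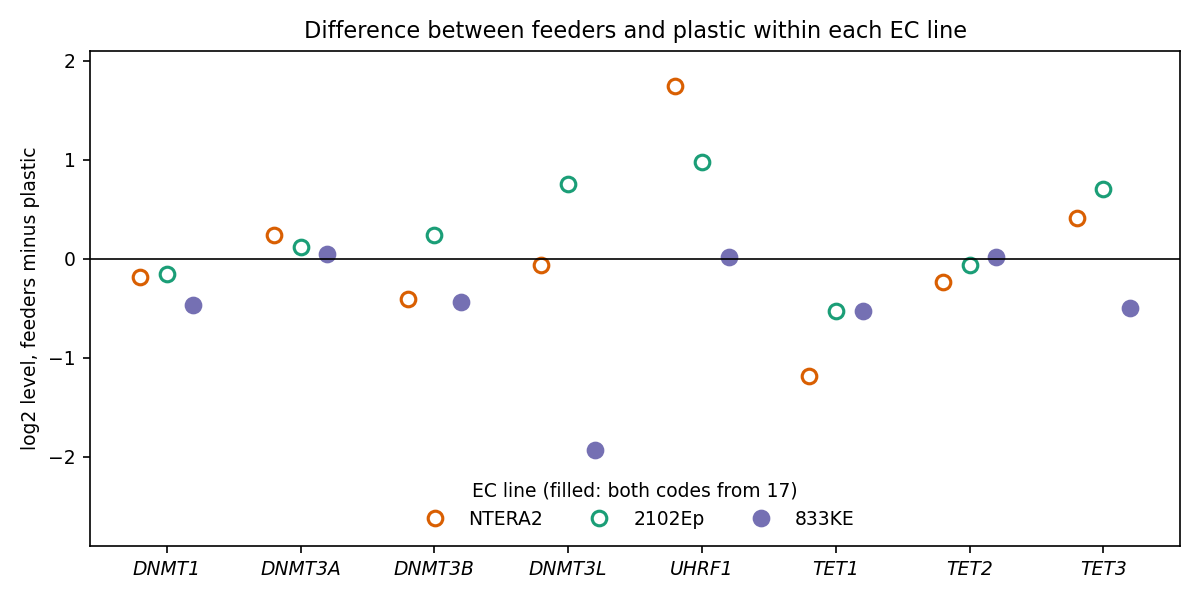
Log2 level on feeders minus that on plastic (vertical axis) for each gene in NTERA2, 2102Ep and 833KE; filled points mark the line whose arrays both have codes from 17. TET1 is below 0 in all 3 lines, UHRF1 is near 0 in 833KE and above 0 in the other two, and DNMT3L ranges from -1.93 to 0.76.

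The DNMT3A probesets with the highest numbers did not follow the body of the gene. Between genes of the minus strand of chromosome 2 the numbers follow the genome (Spearman rho = 1 over 385 genes); if they also do within the gene, which was not checked, high numbers lie toward the upstream start. The mean of the 22 lowest-numbered probesets was 9.56, 9.97 and 10.00 in NTERA2, 2102Ep and 833KE on feeders, 8.84, 9.90, 10.09, 8.85 and 9.35 in NCCIT, 2102Ep, 833KE, TERA1 and NTERA2 on plastic, and 8.86 to 9.69 in ES lines. The mean of the 5 highest-numbered was 8.67, 8.54 and 8.64 in the same lines on feeders, 8.25, 8.31, 8.42, 8.42 and 8.16 on plastic, and 8.29 to 8.78 in ES lines. The lower block was thus high in 2102Ep and 833KE and low in NCCIT and TERA1, while the upper block stayed within the ES range in all EC arrays but NCCIT and NTERA2 on plastic, which lay just below it. Upper minus lower block was -0.90, -1.44 and -1.36 in NTERA2, 2102Ep and 833KE on feeders, -0.59, -1.58, -1.67, -0.42 and -1.20 in NCCIT, 2102Ep, 833KE, TERA1 and NTERA2 on plastic, and between -1.36 and -0.51 in ES lines. These blocks were set after the values were seen, and no test is given.

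**Figure D3:**
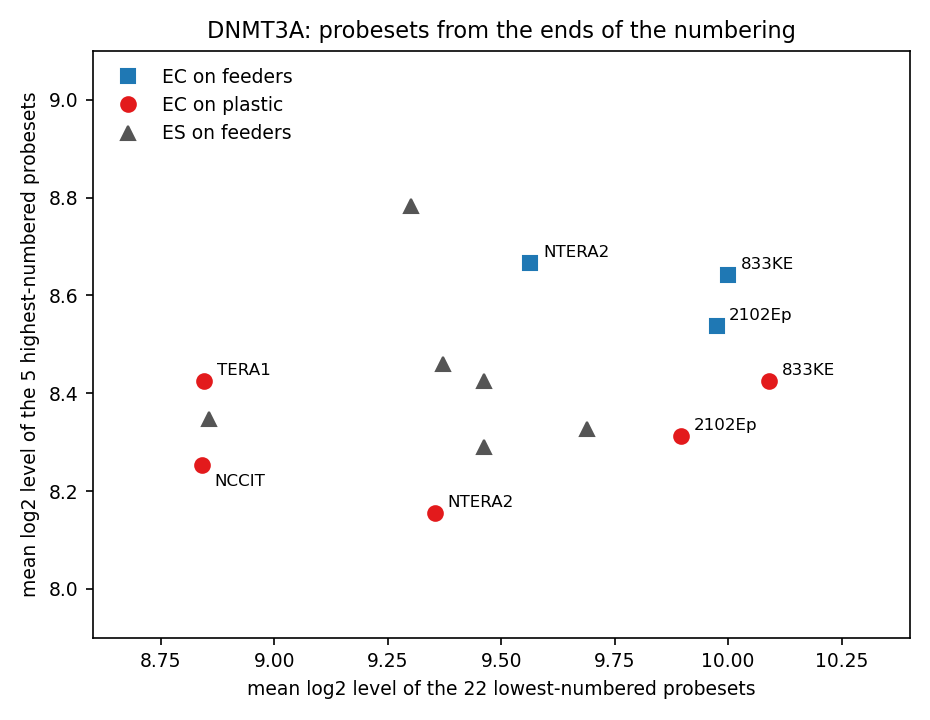
Mean log2 level of the 22 lowest-numbered DNMT3A probesets (horizontal axis) against that of the 5 highest-numbered (vertical axis); each point is an array, with EC lines named. EC arrays spread from 8.84 to 10.09 along the horizontal axis and from 8.16 to 8.67 along the vertical axis.

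Exon usage, the difference of a probeset from its gene's other probesets, was tested with limma's diffSplice. In EC lines on plastic against ES lines 0 of 192 member probesets were called, with 0.436% of all probesets called. The count was 1 of 191 in EC lines on feeders against ES lines, with 0.242% of all probesets called. At a diffSplice unadjusted p below 0.05 there were 7 of 192 on plastic and 11 of 191 on feeders. The share of all probesets at that cut is not given here, so these counts are not read further. The called probeset was DNMT3A probeset 2544715, with a usage difference of 1.13 (diffSplice adjusted p = 0.0249). This probeset read 5.05, 5.73 and 6.07 in NTERA2, 2102Ep and 833KE on feeders, 2.19, 5.90, 4.85, 2.98 and 4.83 in NCCIT, 2102Ep, 833KE, TERA1 and NTERA2 on plastic, and 2.46 to 4.83 in ES lines. Its levels are near the 25th percentile of all probesets (4.82), and it entered the test only through the EC lines on feeders, where it is high. The call was lost when each probeset kept its own spread (limma adjusted p = 0.555, with 0.0192% of all probesets called). It was also lost without the EC line 2102Ep or 833KE or the ES line H14 or Shef7 (adjusted p up to 0.230). It was kept with no cut on dim probesets (diffSplice adjusted p = 0.0372) and with the code in the model (diffSplice adjusted p = 0.0149). When both groups had to exceed that percentile the probeset was left out, so that setting cannot test the call. The DNMT3A probeset with the largest usage difference in EC lines on plastic against ES was 2544734, within the highest-numbered block (0.58, diffSplice adjusted p = 0.797). It read 7.78, 7.07 and 7.36 in EC lines on feeders, 6.06, 6.95, 7.09, 6.95 and 7.29 in EC lines on plastic in the order above, and 5.84 to 7.10 in ES lines.

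DNMT3B (cluster 3882012), the other new-methylation enzyme, was bright in every array. It read 10.75 in NTERA2, 11.79 in 2102Ep and 11.44 in 833KE on feeders. EC lines on plastic read 10.53 in NCCIT, 11.54 in 2102Ep, 11.87 in 833KE, 11.49 in TERA1 and 11.16 in NTERA2, and ES lines had 11.10, 11.53 and 11.71 at the lowest, the median and the highest. NCCIT on plastic and NTERA2 on feeders were below all ES lines, 833KE on plastic and 2102Ep on feeders were above them. The differences from ES were -0.12 (SE 0.24, limma adjusted p = 0.852) on feeders and -0.12 (SE 0.22, limma adjusted p = 0.823) on plastic; without NCCIT the value on plastic was 0.072. Its 16 measured neighbours in band 20q11.21, a region known to be gained in cultured ES lines, gave 0 calls in all 3 comparisons. Of all clusters 2.29% were called on feeders against ES, 4.6% on plastic against ES and 0% on feeders against plastic. The counts of 0 are near these shares and are not read further. Medians of the neighbours were 0.029 in EC lines on feeders and -0.035 in EC lines on plastic against ES. The neighbours with the smallest p in EC lines on plastic against ES were ASXL1, a chromatin regulator (-0.29, limma adjusted p = 0.271), and CCM2L (-0.24, limma adjusted p = 0.290).

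A pair of DNMT3B probesets was low in NCCIT on plastic and in NTERA2 on feeders, but not in NTERA2 on plastic. Human DNMT3B is known for transcripts that leave out exons near the 3′ end of its coding sequence, some of which encode proteins without catalytic activity; the probesets were not placed on exons here. Probesets 3882060 and 3882062 are the 28th and 29th of 32 by number. Probeset 3882060 read 9.74 in NTERA2 on feeders and 8.83 in NCCIT on plastic, against 10.77 in NTERA2 on plastic and 11.26 to 11.88 in the other EC arrays and 10.79 to 11.89 in ES lines. Probeset 3882062 read 10.05 in NTERA2 on feeders and 9.26 in NCCIT on plastic, against 11.52 in NTERA2 on plastic, 11.72 to 12.42 in the other EC arrays and 11.24 to 12.14 in ES lines. The same arrays were thus low at both, by more than the gene as a whole.

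The usage index puts this on a common scale: it is a probeset's level minus its mean in the (other) ES lines, minus the median of that shift over the gene's probesets. The DNMT3B pair had an index of -1.68 and -1.70 in NCCIT on plastic, -0.93 and -1.07 in NTERA2 on feeders, and -0.31 and -0.010 in NTERA2 on plastic. In the 11 other arrays the index of both lay between -0.37 and 0.32, a range that also holds both values of NTERA2 on plastic. In NCCIT 0.77% and 0.74% of all probesets had an index as low or lower, and in NTERA2 on feeders 3.52% and 2.49%. The 29 other DNMT3B probesets had indices of -0.60 to 0.64 in NCCIT. In NTERA2 on feeders they reached -1.62 at the last-numbered probeset 3882066 and -1.34 at 3882037, both lower than the pair. The pair was picked after its values were seen and as the lowest in NCCIT, and no test of the single arrays is given; between groups neither passed the test (usage differences of -0.22 and -0.23 on feeders with diffSplice adjusted p of 1.00 for both, and of -0.35 and -0.27 on plastic with the same p).

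**Figure D4:**
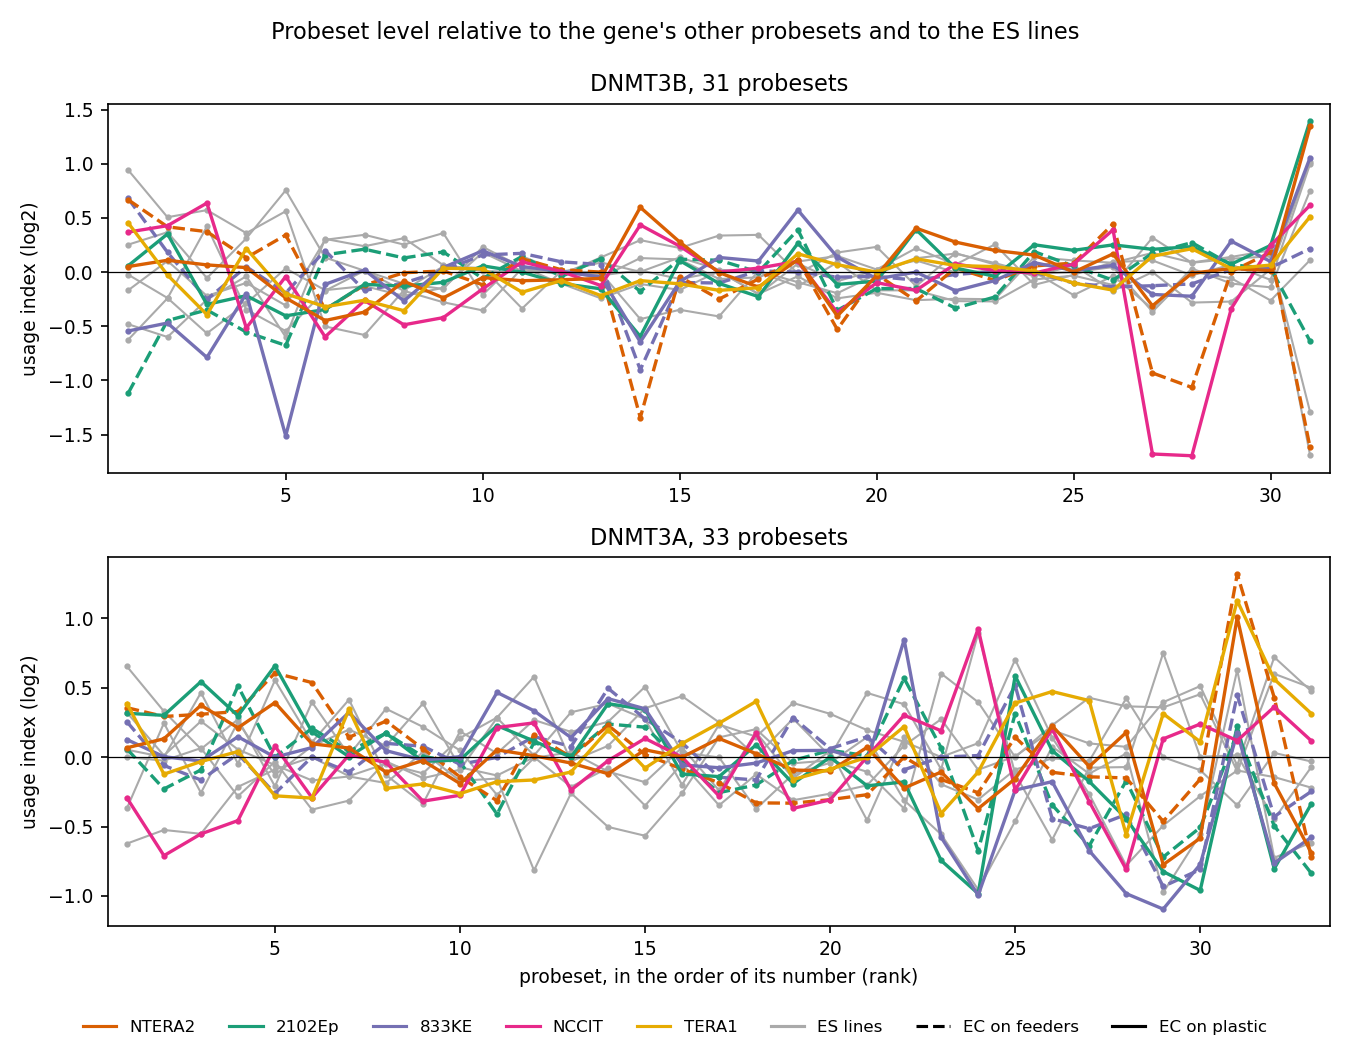
Usage index (vertical axis, log2) of the DNMT3B probesets (top) and DNMT3A probesets (bottom) above the 25th percentile, in the order of their numbers (horizontal axis, rank); each line is an array, dashed for EC on feeders, solid for EC on plastic, grey for ES. At ranks 27 and 28 of DNMT3B, NCCIT lies at -1.68 and -1.70 and NTERA2 on feeders at -0.93 and -1.07.

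The last-numbered DNMT3B probeset, 3882066, was lowest on the arrays with codes up to 13. It read 4.84, 6.86 and 7.39 in NTERA2, 2102Ep and 833KE on feeders, 6.92, 8.63, 8.66, 7.74 and 8.22 in NCCIT, 2102Ep, 833KE, TERA1 and NTERA2 on plastic, and 5.94 in H14, 6.34 in Shef5 and 6.98 to 8.01 in the 4 other ES lines. H14, Shef5, and NTERA2 and 2102Ep on feeders were thus the lowest 4 of all 14. In EC lines on plastic against ES its usage difference was 1.05 (diffSplice adjusted p = 0.0915), and with the code in the model 0.45 (diffSplice adjusted p = 1.00). It passed the test without NCCIT (diffSplice adjusted p = 0.00394), Shef6 (0.0378) or H9 (0.0444).

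DNMT3L (cluster 3934439) had the widest spread of the 8 among EC lines. It read 4.74 in NTERA2, 7.44 in 2102Ep and 5.83 in 833KE on feeders. On plastic it read 4.98 in NCCIT, 6.68 in 2102Ep, 7.76 in 833KE, 5.92 in TERA1 and 4.81 in NTERA2, and ES lines had 4.83, 5.07 and 5.49 at the lowest, the median and the highest. The 5 arrays of 2102Ep, 833KE and TERA1 were above every ES line and the 3 of NCCIT and NTERA2 were within or just below the ES range. The SD was 1.36 in EC lines on feeders (n = 3), 1.23 in EC lines on plastic (n = 5) and 0.26 in ES lines (n = 6); 98.9%, 97.8% and 43.2% of all clusters had an SD as small or smaller in the same group. The mean difference was 0.86 (SE 0.46, limma adjusted p = 0.367) for EC lines on feeders and 0.89 (SE 0.45, limma adjusted p = 0.313) for EC lines on plastic, both below the SD of the EC lines. On feeders it was 0.15 without 2102Ep and 1.49 without NTERA2, and on plastic 0.46 without 833KE. In 833KE it was lower on feeders than on plastic by -1.93 and in 2102Ep higher by 0.76, so growth condition gave no common direction.

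Most DNMT3L probesets shared this pattern, as 13 of 16 correlated with the median of the others at r above 0.5 over the 14 exon-level arrays. The exceptions included the 2 highest-numbered, 3934459 and 3934460. Probeset 3934459 stayed between 7.29 and 7.41 in EC lines on feeders, 7.04 and 7.54 in EC lines on plastic and 7.21 and 7.88 in ES lines. Probeset 3934460 read 4.70 to 5.53 in EC lines on feeders, 4.16 to 5.66 in EC lines on plastic and 4.60 to 5.81 in ES lines. Their usage indices in 833KE on plastic were -2.73 and -3.79, since the rest of the gene was high there and these were not. Probeset 3934454 of DNMT3L, in the part that moved, differed by 1.39 in EC lines on feeders against ES (limma adjusted p = 0.207), and by 2.05 without NTERA2, where it passed the test (limma adjusted p = 0.0339).

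TET2 (cluster 2738146), a 5-methylcytosine oxidase, ran opposite to DNMT3L across the EC lines. It read 5.16 in NTERA2, 4.13 in 2102Ep and 4.46 in 833KE on feeders. On plastic it read 5.80 in NCCIT, 4.20 in 2102Ep, 4.44 in 833KE, 4.21 in TERA1 and 5.40 in NTERA2, and ES lines had 4.60, 4.85 and 5.26 at the lowest, the median and the highest. Every array of 2102Ep, 833KE and TERA1 was below all ES lines, and NCCIT and NTERA2 on plastic were above them. Over the 14 arrays TET2 correlated with DNMT3L at r = -0.75 and with DNMT3B at r = -0.75, a description over arrays that share lines. Group differences from ES did not pass the test (-0.33, SE 0.23, limma adjusted p = 0.514 on feeders; -0.11, SE 0.29, limma adjusted p = 0.887 on plastic), and the value on feeders was -0.62 without NTERA2 and -0.11 without 2102Ep. Only 6 of its 14 probesets had levels above the 25th percentile, so these values rest on little signal.

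**Figure D5:**
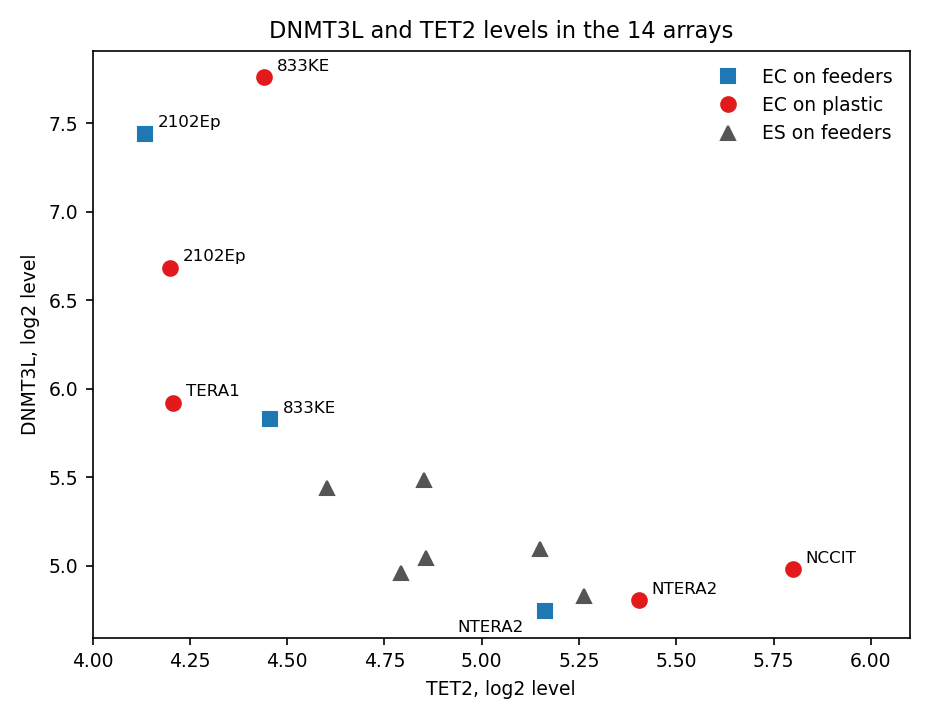
Log2 level of TET2 (horizontal axis) against DNMT3L (vertical axis) in the 14 arrays, with EC lines named. The arrays of 2102Ep, 833KE and TERA1 lie at DNMT3L of 5.83 to 7.76 and TET2 of 4.13 to 4.46, those of NCCIT and NTERA2 at DNMT3L of 4.74 to 4.98 and TET2 of 5.16 to 5.80, and ES lines at DNMT3L of 4.83 to 5.49 and TET2 of 4.60 to 5.26.

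Germline genes whose promoters carry methylation in somatic cells were also uneven among EC lines. Of 10 measured, 1 rose and 0 fell in EC lines on plastic against ES, where 3.26% of all clusters were higher and 1.34% lower, with a median of 0.93 against 0.0046 for all clusters. The gene was HORMAD1, a protein of meiotic chromosome axes (3.84, SE 0.66, limma adjusted p = 0.00807). The list had 1 call on feeders, PIWIL1, a partner of small RNAs in the germ line (1.45, SE 0.18, limma adjusted p = 0.0058; named after its value was seen), which rose against ES, and a median of 1.59 against 0.042 for all clusters. In that comparison 1.56% of all clusters were called higher. HORMAD1 read 8.54 in 2102Ep and 8.14 in 833KE on feeders and 8.25, 9.13 and 9.44 in 2102Ep, 833KE and TERA1 on plastic, against 4.31 in NTERA2 on feeders and 4.99 in NTERA2 and 6.77 in NCCIT on plastic. By array the list was highest in 833KE: relative to ES lines the median of the 10 genes was 2.54 in 833KE on feeders and 2.495 in 833KE on plastic, against -0.064 to 0.73 in the other EC arrays. List medians without 833KE were not computed. Summed levels were 40.0 to 55.4 in EC lines on feeders, 36.1 to 57.6 in EC lines on plastic and 31.2 to 32.3 in ES lines. The median level of the 10 germline genes was 3.52 to 6.07 in EC lines on feeders, 3.32 to 5.63 in EC lines on plastic and 3.27 to 3.45 in ES lines. No gene of the list, PIWIL1 and HORMAD1 included, read above 4.16 in any ES line. That is below the 25th percentile of all clusters (4.58), so the ES side of these differences rests on little signal.

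TET1 (cluster 3249886), the TET enzyme best known from ES cells, was lower on feeders than on plastic in each of the 3 lines. Of all clusters 38.7% had 1 sign in all 3 lines. The cluster of TET1 had these levels. It read 8.72 in NTERA2, 9.59 in 2102Ep and 9.75 in 833KE on feeders. On plastic it read 9.87 in NCCIT, 10.13 in 2102Ep, 10.28 in 833KE, 9.78 in TERA1 and 9.91 in NTERA2, and ES lines had 9.38, 9.73 and 9.95 at the lowest, the median and the highest. The difference was -1.19 in NTERA2, -0.53 in 2102Ep and -0.53 in 833KE, so that the 3 arrays on feeders lay below the same lines on plastic without overlap, as do the groups for 14.2% of all clusters. The mean difference was -0.75 (SE 0.21, limma unadjusted p = 0.0135, adjusted p = 0.269), or 1.68-fold lower without passing the test. All 29 probesets were lower on feeders, by -1.51 to -0.32. Of them 19 had a limma unadjusted p below 0.05, as did 12.7% of all probesets. Probesets of a gene are read on the same arrays, so they are not independent and add no replicates. In NTERA2 and 2102Ep growth on feeders and the array code cannot be told apart. In 833KE, whose arrays both have codes from 17, the difference was -0.53.

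TET1 levels also differed with the array code: they were 8.72 to 9.59 on the 4 arrays with codes up to 13 and 9.68 to 10.28 on the 10 others. Against ES lines TET1 differed by -0.35 (SE 0.23, limma adjusted p = 0.488) in EC lines on feeders (-0.033 without NTERA2 and -0.55 without 833KE) and 0.29 (SE 0.14, limma adjusted p = 0.293) in EC lines on plastic, where all 29 probesets were higher, by 0.049 to 0.92. Among arrays with codes from 17 the second value was 0.17 (limma adjusted p = 0.634), and with quantile normalisation 0.10. TET1 and UHRF1 correlated at r = -0.71 over the 14 arrays, which share these codes.

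TET3 (cluster 2489071), the third oxidase, lay on both sides of the ES range. It read 7.01 in NTERA2, 6.80 in 2102Ep and 5.85 in 833KE on feeders. The plastic arrays read 6.60 in NCCIT, 6.09 in 2102Ep, 6.34 in 833KE, 6.02 in TERA1 and 6.60 in NTERA2, and ES lines had 6.16, 6.37 and 6.78 at the lowest, the median and the highest. NTERA2 and 2102Ep on feeders were above all ES lines, and 833KE on feeders and 2102Ep and TERA1 on plastic were below. The differences from ES were 0.13 (SE 0.25, limma adjusted p = 0.849) on feeders and -0.085 (SE 0.16, limma adjusted p = 0.833) on plastic, and both signs turned when the code was in the model (-0.072 and 0.046). Within lines it was higher on feeders in NTERA2 (0.41) and 2102Ep (0.71) and lower in 833KE (-0.50), the line without a change of code group.

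Over all 203 member probesets taken singly, 0 were called in EC lines on plastic against ES, with 2.81% of all probesets called. The count was also 0 in EC lines on feeders, against ES with 0.953% of all probesets called and against plastic with 0% called. At an unadjusted p below 0.05 there were 23, 19 and 41, or 11.3%, 9.36% and 20.2% of the member probesets, against 17%, 13.6% and 12.7% of all probesets. TET1 gave 19 of the 41 and DNMT1 gave 16, in both directions. Among the other members the probesets with the largest usage difference in EC lines on plastic against ES were 3934455 of DNMT3L (1.28), 3249930 of TET1 (0.55), 2738170 of TET2 (0.84), 2489108 of TET3 (-0.19) and 3817713 of UHRF1 (-0.34), with diffSplice adjusted p from 0.597 to 1.00.

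Partners in maintenance and recruitment gave 1 gene higher and 0 lower of 10 measured in EC lines on plastic against ES (median 0.071), where 3.26% of all clusters were higher. It was HELLS, a chromatin remodeller needed for DNA methylation, at 10.42 in EC lines on plastic and 9.30 in ES lines on average (1.13, SE 0.22, limma adjusted p = 0.0141). With the code in the model HELLS kept its call (0.97, limma adjusted p = 0.0439), among arrays with codes from 17 it missed the threshold at the same difference (limma adjusted p = 0.0699), and in EC lines on feeders it differed by 0.32 (limma adjusted p = 0.704). Readers of methylated DNA gave 1 higher and 0 lower of 5 in the same comparison (median 0.069), ZBTB33, which binds methylated sites through zinc fingers (0.83, SE 0.21, limma adjusted p = 0.0449). That call was lost with quantile normalisation (0.67, limma adjusted p = 0.134), with the code in the model (0.66, limma adjusted p = 0.121) and without any 1 of NCCIT, 2102Ep, 833KE, TERA1 or the 6 ES lines (adjusted p from 0.0528 to 0.0857).

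Demethylation and base excision partners gave 0 calls of 13 in EC lines on plastic against ES (median 0.072), where 4.6% of all clusters were called. The smallest p of the list there were those of GADD45A, a stress-induced protein linked to DNA repair (0.80, limma adjusted p = 0.0563), and the abasic-site nuclease APEX1 (-0.70, limma adjusted p = 0.110). GADD45A rose in EC lines on feeders against ES (1.33, SE 0.21, limma adjusted p = 0.0126) and no gene of the list fell, where 1.56% of all clusters were higher. The methyl donor cycle gave 0 calls of 11 on plastic (median 0.25), led by methionine synthase, MTR (0.68, limma adjusted p = 0.0735), and MAT2B, a subunit of the enzyme that makes S-adenosylmethionine (0.58, limma adjusted p = 0.113). Of this list, in EC lines on feeders, the serine hydroxymethyltransferases SHMT2 (1.27, SE 0.21, limma adjusted p = 0.0187) and SHMT1 (1.04, SE 0.20, limma adjusted p = 0.0287) rose and 0 of the 11 fell. With the code in the model both kept their calls (limma adjusted p = 0.0325 and 0.0152). Among arrays with codes from 17, where a single EC array meets 4 ES arrays, the differences were 1.37 for SHMT2 and 0.81 for SHMT1 and missed the threshold (limma adjusted p = 0.0961 and 0.129), while GADD45A (1.74, limma adjusted p = 0.0453) and PIWIL1 (1.89, limma adjusted p = 0.0277) kept their calls. SHMT2 and SHMT1 also missed it without 2102Ep (limma adjusted p = 0.0700 and 0.103) and SHMT1 also without NTERA2 (0.0727), Shef6 (0.0639), Shef3 (0.0724), H9 (0.0514) or Shef7 (0.0622). GADD45A, SHMT1 and SHMT2 on feeders were named after their values were seen.

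The clusters most like each member over the 14 gene-level arrays are given as a description, by Pearson's r. For DNMT1 they were FAM32A (0.95), PUM3 (0.92) and ELAVL1 (0.91), and for UHRF1 STRA6 (0.90), ADISSP (0.88) and PCBP4 (0.87). For DNMT3A they were NES (0.89), CRYM (0.88) and STK35 (0.85), for DNMT3B LAD1 (0.90), KCNH6 (0.88) and VDR (0.87), and for DNMT3L PURA (0.93), KLK6 (0.92) and CD79B (0.92). For TET1 they were TBCA, ATXN3 and RPS24 (0.90, 0.89 and 0.87), for TET2 USP3, FKBP7 and CACHD1 (0.95, 0.93 and 0.92), and for TET3 S100A16, ARID1A and SIDT2 (0.94, 0.93 and 0.93). No member was among the 3 most like another member. Between members the highest positive r was 0.66, for DNMT3B and DNMT3L.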

How the data were processed

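RNA of 14 cultures was hybridised to exon arrays. The authors deposited log2 values summarised with RMA in Affymetrix Expression Console, per the submitters' processing notes, which also name limma; RMA settings and annotation release are not given in the sources used here, and that the values are log2 was inferred from their span. Array medians were 6.19 to 6.39 at gene level and 6.45 to 6.80 at exon level. Symbols came from the platforms' annotation; 14432 of 22011 clusters and 261273 of 287329 probesets had 1 symbol. Detection p-values were not used, so signal over background is unknown. Precision is limited by how few arrays there are.

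Nothing was transformed before the fits. All tests were two-sided linear models from limma (version 3.58.1, under R 4.3.3) with moderated variances and Benjamini-Hochberg adjustment over every feature, with 0.05 as the threshold. For feeders against plastic each line was blocked: the pairing comes from the line names in the labels, and the deviations of same-line arrays from the condition means correlated at r = 0.51 (NTERA2), 0.41 (2102Ep) and 0.34 (833KE), which is partly built in. Exon usage was tested with diffSplice, keeping probesets whose mean exceeded the 25th percentile in at least 1 group, in genes keeping at least 3. Since diffSplice shares a spread among the probesets of a gene, a fit with each probeset's own spread was added after seeing the data. Figures used matplotlib 3.10.9.

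The members, the lists and the naming rule were chosen with earlier results of these data known. The rule names all members, up to 4 called genes of each list in EC lines on plastic against ES (otherwise the 2 smallest p), the 3 clusters most like each member, and the probeset with the largest usage difference per member. Of the lists, 13, 8, 18, 14, 12, 15 and 22 symbols were sought for maintenance partners, readers, demethylation partners, methyl donor genes, germline genes, S phase genes and the 20q11.21 band. The array-code split, the alternatives for list genes, the probeset blocks and the DNMT3B and DNMT3L pairs were chosen after seeing the data. Alternatives were quantile normalisation, dim features left out, limma-trend, medians of probesets, the code as a term or by subset, and each array left out.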

Additional observations from a re-analysis of the deposited data

Results flagged for a closer look

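Single arrays stood apart from the rest of their group, by the gap to the nearest array over the group's range, in 3 of 30 groups checked (the 8 genes and 7 named probesets, in the 5 EC arrays on plastic and the 6 ES arrays). Chance gives about 1 in 20, but all 3 fell on probesets that had been named for their values, so their number cannot be read against it. DNMT3B probeset 3882062 was low in NCCIT among EC lines on plastic, at 9.26. DNMT3A probeset 2544734 was low in NCCIT among EC lines on plastic, at 6.06, and high in H9 among ES lines, at 7.10. None of the 8 gene-level values stood apart in this way.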

How the results depend on the processing

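Of 559 values under alternatives, 499 stayed the same. For the difference of a gene this means the same direction and side of the threshold, and for a count of called members or probesets the same count. With all arrays kept, no alternative gave a called member at gene level; quantile normalisation set the median of all clusters at -0.029, 0.00079 and 0.018 in the 3 comparisons, against 0.0046, 0.042 and 0.022 as deposited. Leaving out arrays gave 0 to 1 called members in EC lines on plastic against ES (1 without H9) and 0 in the 2 other comparisons. Called member probesets at exon level were 1 with the code as a block (DNMT1 probeset 3850073, limma adjusted p = 0.0366) and 0 to 1 without 1 array in EC lines on plastic (3850137 without NCCIT, 3850073 without H14), and 0 to 1 in EC lines on feeders against ES. For exon usage the counts without 1 array were 0 to 1 on plastic and 0 to 3 on feeders. The 3 were DNMT1 probesets 3850073, 3850081 and 3850153 without 833KE. With own spreads the feeder count was 0. It was also 0 with the cut in both groups, which left out the called DNMT3A probeset beforehand. Signs turned for values near 0 and also for some larger ones. The latter were UHRF1 (0.36 in the main fit) and DNMT1 (0.29) in EC lines on feeders against ES, and DNMT3L (-0.41) in feeders against plastic. In EC lines on plastic against ES, DNMT3A was -0.19 with quantile normalisation and -0.0016 with the code as a block or among codes from 17, where TET3 was 0.046, and DNMT3B was 0.079 in the 3 lines also grown on feeders. In EC lines on feeders against ES, TET3 was -0.072 with the code as a block, and among codes from 17 DNMT1 was -0.29, DNMT3B 0.11, UHRF1 -0.63 and TET3 -0.44. Ranges without 1 array that crossed 0 were, on plastic, DNMT3A -0.15 to 0.13 (-0.11 without 2102Ep, -0.0071 without Shef5, -0.077 without Shef7), DNMT3B -0.26 to 0.072 and TET2 -0.36 to 0.043 (0.041 without TERA1); on feeders, DNMT3B -0.35 to 0.17 and TET3 -0.10 to 0.49; and feeders against plastic, TET3 -0.045 to 0.56 and DNMT3L -0.997 to 0.35. The causes were not tested. The fit with no replicate block (the line left out of the model) gave 0 called members and changed no other call; UHRF1 then had a limma adjusted p of 0.653 and TET1 of 0.602.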
